A study of Mus musculus with 34 samples.

Results

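Of 330 *Myh11*-GFP cells from mouse ear skin with more than 1000 transcripts, 150 were chosen by the measured levels of *Acta2* and *Myh11*, which together reached at least 50 of every 10,000 transcripts. *Acta2* codes for the α-actin and *Myh11* for the myosin heavy chain of smooth muscle. The cells came from untreated C57BL/6J mice carrying the transgene Myh11GFP/+, in which the *Myh11* promoter drives GFP, and were sorted as CD45- GFP+ cells. The reporter thus used *Myh11* promoter activity to choose the cells before the threshold did. The methods give a single young adult age range for mice of every genotype in the study, and the exact age, sex and number of these mice are not given in the sources used here. The series holds 2807 cells above this depth in 34 libraries, of which 2477 are dermal mast cells (MCs) of WT and *Tln1* knockout mice and serve here only as a background. The 4 *Myh11*-GFP libraries, numbered 13 to 16, carry no animal number. They were therefore counted as 1 sample, so that no p-value is given and every interval covers counting error only.

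The 150 cells are called *Acta2-Myh11* high cells. They were compared with the 163 remaining cells, whose sum was under 50, and with the 131 remaining cells that held at least 50 *Rgs5* per 10,000, named *Rgs5*-high remaining cells. *Rgs5* codes for a regulator of G protein signalling that is abundant in pericytes and in the smooth muscle of small vessels. A further 17 cells were left out because 5 heart muscle genes made up 0.5% or more of their transcripts, and 8 of these 17 lay on barcodes outside the set in use. A level is the number of transcripts per 10,000 outside genes named Gm plus a digit, summed over the cells of a group, and a fold is the ratio of 2 levels. A gene counted as higher or lower at 2-fold or more and at 0.5-fold or less, given at least 20 UMIs (unique molecular identifiers, each marking 1 captured molecule) over both groups.

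Vascular smooth muscle cells (VSMCs) wrap arterioles and venules and set their width. Calcium binds calmodulin and activates myosin light chain kinase, phosphorylated myosin pulls on actin filaments, and the cell shortens. Pericytes are the related mural cells of capillaries, with little contractile protein. Many contractile genes are switched on by serum response factor and its cofactor myocardin, which bind a short sequence called the CArG box.

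The sequences before the start sites of *Acta2*, *Myl9* and *Ldb3* are shown because these genes of the contractile set hold CArG boxes close to the start. Each is the 250 bases before the RefSeq start on GRCm38.p6, read along the gene's strand, and capitals mark CArG boxes, with the core either of A and T alone or holding 1 other base. *Acta2* lies on chr19:34255374-34255623 (minus strand), *Myl9* on chr2:156775214-156775463 (plus strand) and *Ldb3* on chr14:34588682-34588931 (minus strand).
Acta2: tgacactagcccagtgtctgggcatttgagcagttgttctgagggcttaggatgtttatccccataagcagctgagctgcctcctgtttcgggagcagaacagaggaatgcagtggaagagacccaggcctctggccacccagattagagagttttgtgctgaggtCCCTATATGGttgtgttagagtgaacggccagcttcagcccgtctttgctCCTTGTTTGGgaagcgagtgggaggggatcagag
Myl9: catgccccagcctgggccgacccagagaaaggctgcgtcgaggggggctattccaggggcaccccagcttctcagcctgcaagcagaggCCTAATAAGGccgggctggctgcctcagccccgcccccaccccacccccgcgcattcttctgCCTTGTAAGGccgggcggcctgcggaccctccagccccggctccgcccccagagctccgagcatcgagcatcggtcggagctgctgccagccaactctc
Ldb3: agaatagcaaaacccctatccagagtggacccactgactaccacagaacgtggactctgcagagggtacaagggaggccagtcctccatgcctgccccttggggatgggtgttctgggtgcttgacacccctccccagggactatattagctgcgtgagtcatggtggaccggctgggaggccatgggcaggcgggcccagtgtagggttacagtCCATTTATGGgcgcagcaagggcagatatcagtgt

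In *Acta2* both boxes, CCCTATATGG and CCTTGTTTGG, hold 1 other base and begin 84 and 34 bases before the start. In *Myl9* the box CCTAATAAGG is exact and begins 161 bases before the start, and CCTTGTAAGG holds 1 other base and begins 99 before it. The box of *Ldb3*, CCATTTATGG, is exact and begins 35 bases before the start. Of the 28 genes of the contractile set with *Acta2* and *Myh11*, 23 had a window of 250 bases before and 50 after the start in the RefSeq table. An exact box stood in 3 of the 23 (13%), namely *Myl9*, *Myl6* and *Ldb3*, against 1.81% of all 27025 gene symbols with a window. With 1 other base allowed, 6 of the 23 (26.1%) held a box, now with *Acta2*, *Synm* and *Pdlim3*, against 11.3% of all symbols. The pattern of the box, though not each box itself, is the same on both strands, and a match describes letters only. *Tagln* and *Myh11* had no window in the table.

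The 150 cells were 45.5% of the 330 (exact binomial 95% interval, 40.0 to 51.0). Libraries 13 to 16 gave 40 of 93, 34 of 78, 45 of 86 and 31 of 73 cells. Median depth was 4545 transcripts per cell, between 1028 and 13889, and 4963 in the remaining cells. Library 16 was the shallowest, with a median of 2924 transcripts in its *Acta2-Myh11* high cells against 4481 to 5450 in the others. Genes named Gm plus a digit took a median of 8.84% of the transcripts of a cell and up to 88.8%, and 10 of the 150 cells kept 1000 transcripts or fewer outside them. Cell barcodes were shared by 18 *Acta2-Myh11* high cells of libraries 13 and 15 and by 13 of libraries 14 and 16, and by none between the other pairs. Cells on the same barcode in libraries 13 and 15 had a median correlation over 2000 genes of 0.373, against 0.362 for other pairs of cells, and in libraries 14 and 16 of 0.326 against 0.318.

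The sum of *Acta2* and *Myh11*, which chose the cells, ran from 50.3 to 299.6 with a median of 95.9, and from 0 to 49.6 with a median of 18.9 in the remaining cells. The threshold cut through a continuous range: 21 *Acta2-Myh11* high cells lay within 10 above it and 25 remaining cells within 10 below. The 10 cells just inside (sum 50.3 to 53.5) held *Tagln* at 19.3 and *Rgs5* at 123, and the 10 just outside (44.7 to 49.6) held *Tagln* at 9.01 and *Rgs5* at 194. *Abcc9* and *Kcnj8* together stood at 4.89 just inside and 2.12 just outside, the reverse of their direction between the whole groups. These cells rested on few molecules, with a median of 16 and 18.5 UMIs of *Acta2* and *Myh11*. The group is a range of this sum rather than a cell type with an edge. *Rgs5* did not divide the groups, since 118 of the 150 cells (78.7%, exact 95% interval 71.2 to 84.9) and 131 of the 163 remaining cells held at least 50 *Rgs5* per 10,000.

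**Figure D1:**
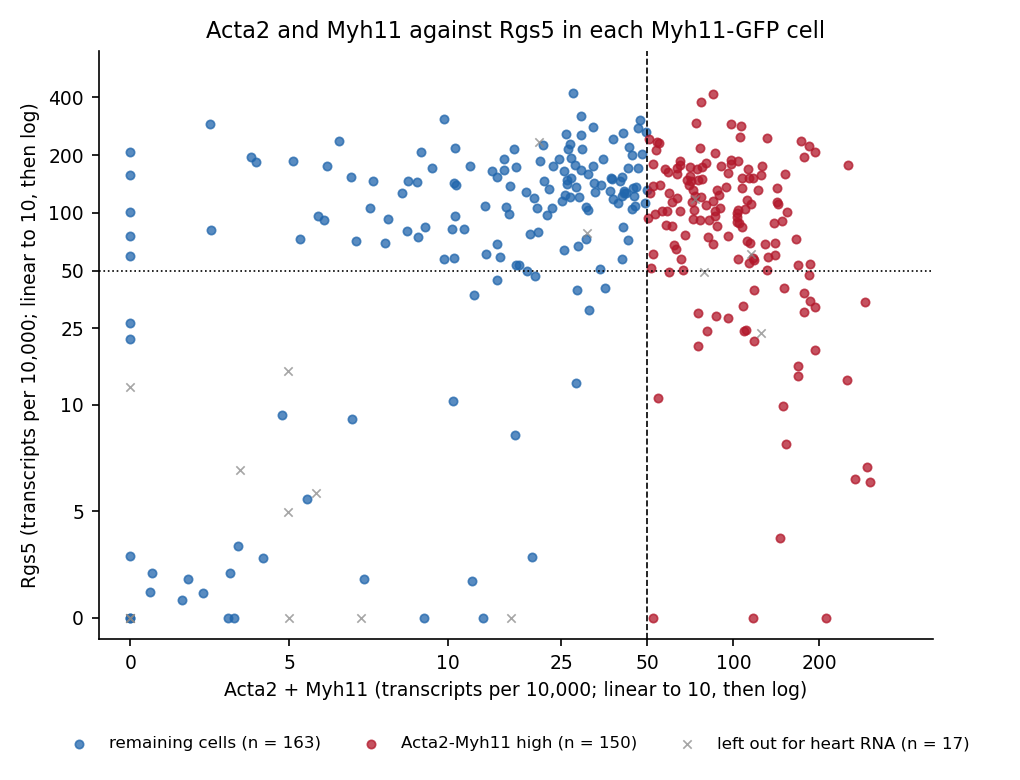
Each point is 1 *Myh11*-GFP cell, with the sum of *Acta2* and *Myh11* on the x axis and *Rgs5* on the y axis, both in transcripts per 10,000 (linear to 10, then log). The 150 *Acta2-Myh11* high cells begin at the threshold of 50 without a gap to the 163 remaining cells, and *Rgs5* reaches 418 in the first group and 422 in the second.

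The contractile apparatus was higher as a whole in the *Acta2-Myh11* high cells. Of 26 contractile genes other than *Acta2* and *Myh11*, 22 were at least 2-fold higher than in the remaining cells and none was at least 2-fold lower, with a median fold of 3.57. Over all 7736 genes measured, 6.17% were at least 2-fold higher and 8.75% at least 2-fold lower, with a median fold of 1.02. Against the *Rgs5*-high remaining cells 20 of the 26 were at least 2-fold higher, with a median fold of 3.11, where 6.04% of 7090 genes were higher, 6.02% lower, and the median over all genes was 1.01. The summed level of the 26 genes ranged over the 4 libraries from 236 to 291 in the *Acta2-Myh11* high cells and from 81.3 to 89.1 in the remaining cells, with no overlap. A cell held a median of 17 of the 26 genes, against 11 in the remaining cells, and 10 against 5 once each cell was thinned to 1000 UMIs.

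*Tagln*, which codes for the actin-binding protein transgelin (SM22α; chr9:45929619-45936058, minus strand), stood at 30.6, 39.9, 36.5 and 27.9 in libraries 13 to 16, against 3.72, 6.46, 6.88 and 3.96 in the remaining cells. Its lowest library value was thus above every value of the remaining cells, and its fold was 6.56 (95% counting interval 5.89 to 7.32), or 5.16 over the *Rgs5*-high remaining cells. *Myl9*, the regulatory light chain of smooth muscle myosin, stood at 27.2, 32.4, 31.0 and 27.2 against 8.44, 8.55, 7.73 and 9.0, a 3.51-fold difference (3.21 to 3.85). *Mylk*, the kinase that phosphorylates this light chain, stood at 31.5, 39.3, 34.5 and 35.8 against 15.9, 13.7, 14.6 and 14.7. Its fold was 2.35 (2.18 to 2.53) over the remaining and 1.78 over the *Rgs5*-high remaining cells, so the kinase was nearer to the other mural cells than the light chain was. The essential light chain *Myl6* was 2.52-fold higher.

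The tropomyosins lie along the actin filament and gate its contact with myosin. *Tpm1* was 3.07-fold higher (2.78 to 3.38), at 21.2, 26.3, 23.5 and 20.8 against 7.24, 9.43, 6.76 and 5.74. *Tpm2* was 5.23-fold higher (4.27 to 6.46), at 5.16, 9.68, 9.25 and 9.20 against 1.51, 1.67, 1.51 and 1.32. Library 13 was the low library for *Tpm2*, yet lay above all 4 values of the remaining cells. *Lmod1*, a leiomodin that starts new actin filaments, was 4.79-fold higher (3.69 to 6.29), at 4.63, 5.72, 3.41 and 5.09 against 1.47, 0.511, 0.603 and 1.09.

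Regulators and scaffolds of the filaments followed the same direction. *Ppp1r12b*, a targeting subunit of myosin phosphatase, was 3.88-fold higher and *Ppp1r14a*, the phosphatase inhibitor CPI-17, 7.71-fold higher (3.93 to 16.9). The filament cross-linkers *Flna* and *Actn1* were 3.62-fold and 3.22-fold higher, and the Z-disc and dense-body proteins *Ldb3* and *Pdlim3* 10.4-fold (5.00 to 25.1) and 8.71-fold (4.61 to 18.2) higher. *Mustn1*, a small protein of muscle, was 5.17-fold higher at 11.9, 18.4, 15.8 and 17.3 against 3.25, 3.25, 2.41 and 2.56. The intermediate filament gene *Synm* was 5.50-fold higher.

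The other 4 genes of the set stayed under 2-fold. *Cald1* (caldesmon) was 1.65-fold higher, *Pdlim7* 1.47-fold and *Des* (desmin) 1.42-fold (1.17 to 1.72). *Des* stood at 3.86, 4.10, 3.15 and 4.72 against 2.67, 2.37, 3.08 and 2.71, and was at 1.05-fold of the *Rgs5*-high remaining cells. *Synpo2*, an actin-bundling protein, was at 0.869-fold (0.702 to 1.07) of the remaining cells and the interval includes 1. Over the *Rgs5*-high remaining cells *Cald1*, *Pdlim7* and *Synpo2* were at 1.31-fold, 1.18-fold and 0.658-fold, against 2.69-fold for *Myl9* and 4.03-fold for *Tpm2*.

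**Figure D2:**
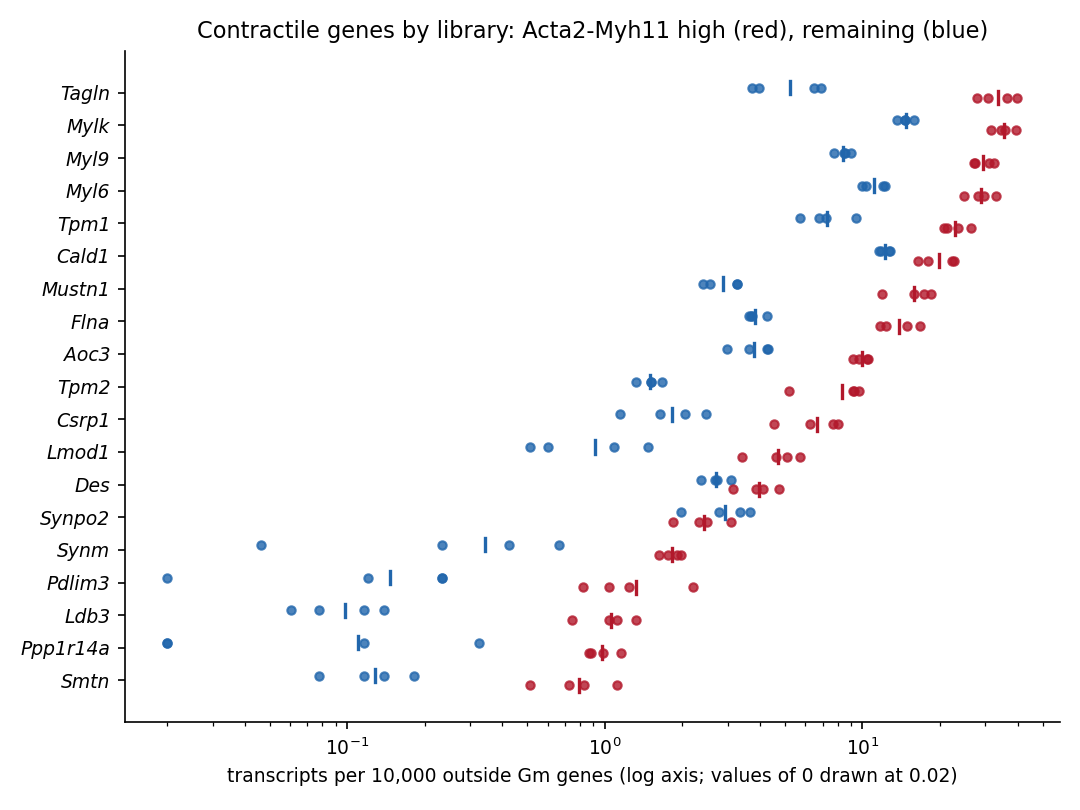
Levels of contractile genes in transcripts per 10,000 (log axis; 0 drawn at 0.02) in libraries 13 to 16, with a point per library for *Acta2-Myh11* high cells in red and remaining cells in blue. *Tagln* separates the groups at 27.9 to 39.9 against 3.72 to 6.88, whereas the 2 colours overlap for *Synpo2*.

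Within the 150 cells the contractile genes were graded. Cells were placed in bands of the *Acta2* and *Myh11* sum, which is a description along the measure that chose them. The 26 genes summed to 172 in the 46 cells of 50 to 75, 230 in the 33 cells of 75 to 100, 279 in the 45 cells of 100 to 150 and 400 in the 26 cells of 150 or more. Below the threshold they summed to 64.5 in the 96 cells under 25 and 129 in the 67 cells of 25 to 50. The steps thus continued across the threshold on both sides. Over the 114 cells with more than 2000 transcripts outside Gm genes, the Spearman correlation between the sum and the 26 genes was 0.837, and 0.794 to 0.851 within each library. Points of this correlation share a library and the depth of their cell, and the 26 genes had a correlation of 0.153 with that depth.

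A small number of the cells carried *Cnn1*, *Actg2* or *P2rx1*, genes known from contractile smooth muscle. *Cnn1* codes for calponin, an actin-binding inhibitor of myosin, and *Actg2* for the γ-actin of smooth muscle, also known from muscle of gut and hair follicle. *P2rx1* codes for a receptor through which ATP from sympathetic nerves opens a cation channel. *Cnn1* had 49 UMIs in 15 of the 150 cells and none in the 163 remaining cells, with levels of 0.676, 0.953, 0.724 and 0.994 in libraries 13 to 16. Set against a floor of 3 counts over the remaining cells, this was at least 20.2-fold higher, and the counting interval began at 15.9. *Actg2* had 70 UMIs in 21 cells against 2 UMIs, a fold of 43.6 with a counting interval of 11.6 to 367, and *P2rx1* 36 UMIs in 19 cells against 1 UMI, a fold of 44.8 with an interval of 7.54 to 1818. Thinned to 1000 UMIs, 5.37%, 4.03% and 4.70% of the cells held a UMI of *Cnn1*, *Actg2* and *P2rx1*. The remaining cells then held none, which allows a share of up to 1.84%.

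These genes came together in some cells. At least 1 of the 3 was seen in 34 of the 150 cells, at least 2 in 16 and all 3 in 5, against 3 remaining cells with at least 1. The 16 cells came from every library (5, 4, 5 and 2), and 10 of them had a sum of 150 or more. Their 26 contractile genes, *Cnn1* and *Actg2* included, summed to 376, against 221 in the 116 cells with none of the 3. *Notch3* was seen in 14 of the 16 and in 97 of the 116, at levels of 9.95 and 11.8. The 16 cells were deeper, at a median of 6458 against 4274 transcripts, and the part of depth in finding these UMIs was not tested.

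*Rgs5* was high at moderate sums and lower at the top. Its level was 136, 153, 118 and 79.6 over the 4 bands from 50 upward, 84.1 under 25 and 157 from 25 to 50. In the top band libraries 13 to 16 stood at 138, 57.5, 48.8 and 86.2, from only 6, 7, 8 and 5 cells. The deepest of the 6 cells of library 13 held 12963 transcripts outside Gm genes and *Rgs5* at 236. The weight of this cell in the library 13 level was not tested. Over the 114 deeper cells the Spearman correlation of *Rgs5* with the 26 contractile genes was -0.46, and -0.67 to -0.25 within libraries. The 32 cells with *Rgs5* under 50 held 355 contractile transcripts per 10,000 against 239 in the other 118, and *Cnn1* at 3.89 against 0.175. *Notch3* was seen in 22 of those 32 cells and in 106 of the 118.

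**Figure D3:**
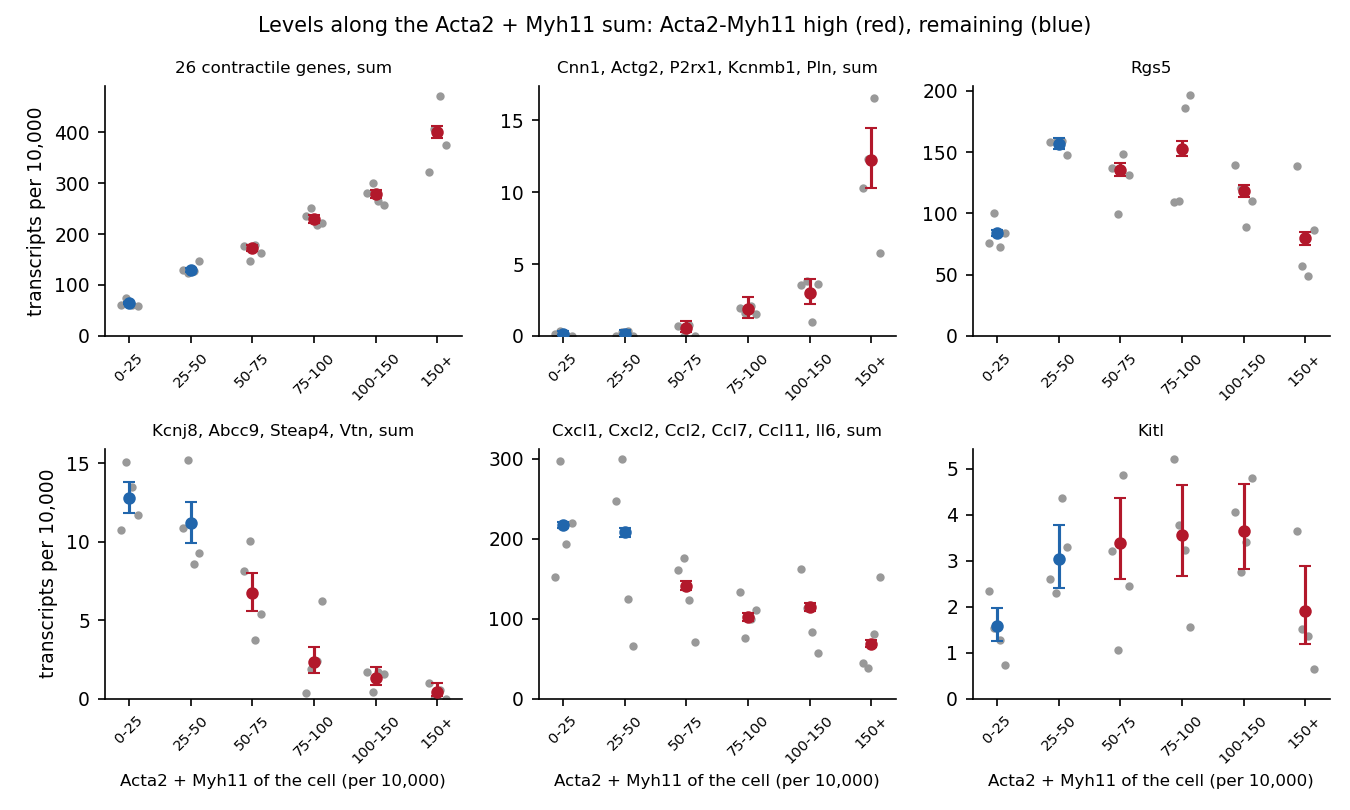
Levels in transcripts per 10,000 over 6 bands of the *Acta2* and *Myh11* sum, with coloured points and bars for the level and its 95% counting interval (red from 50 upward, blue below) and grey points for the 4 libraries. The contractile sum climbs from 64.5 to 400 and the sum of *Kcnj8*, *Abcc9*, *Steap4* and *Vtn* declines from 12.8 to 0.431, while *Rgs5* and *Kitl* are lower in the lowest and highest band than between them.

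Transcription factors differed less than the contractile genes. Of 23 regulators listed, 19 were measured, 4 were at least 2-fold higher and none lower, with a median fold of 1.29, beside 6.17% and 8.75% of all genes. Over the *Rgs5*-high remaining cells 2 of 19 were higher, with a median of 1.06. *Myocd*, the myocardin gene and the main coactivator of smooth muscle genes, had 22 UMIs in the *Acta2-Myh11* high cells and 7 in the remaining cells. Its levels were 0.193, 0.440, 0.413 and 0.497 against 0.116, 0.0464, 0.121 and 0.0775, a fold of 3.91 (1.61 to 10.8) that turned to 0.932 when each cell counted equally. *Mef2c* was 2.43-fold higher (2.01 to 2.94), at 5.41, 6.38, 4.81 and 4.97 against 2.21, 2.00, 2.53 and 2.17. *Tbx2* was 3.33-fold higher (2.29 to 4.91), at 1.74, 1.83, 1.86 and 1.24 against 0.542, 0.696, 0.483 and 0.233. The libraries of the 2 groups did not overlap for *Myocd*, *Mef2c* or *Tbx2*. *Foxc1* was 2.02-fold higher, but 1.86-fold without library 14 and 1.87-fold without library 16. At a threshold of 100 *Mef2c*, *Tbx2* and *Foxc1* were at 1.88-fold, 1.79-fold and 1.69-fold, and *Mef2c* was at 1.78-fold with each cell counted equally. *Srf* itself was at 1.44-fold (1.03 to 2.02), *Ebf1* at 0.748-fold and *Prrx1* at 0.734-fold.

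Notch signalling from endothelium to mural cells maintains arterial smooth muscle, and *Notch3* is the mural receptor. *Notch3* was seen in 128 of the 150 cells, at 12.4, 11.5, 11.4 and 10.3 in the 4 libraries against 8.90, 11.1, 8.09 and 7.37 in the remaining cells. Its fold was 1.28 (1.15 to 1.42), and 0.979 over the *Rgs5*-high remaining cells. Of 11 Notch genes measured, 3 were at least 2-fold higher and 1 lower, beside 6.17% and 8.75% of all genes. Over the *Rgs5*-high remaining cells 3 of 10 were higher and none lower, beside 6.04% and 6.02%. *Hey2*, a target known from arteries, was 4.46-fold higher (2.57 to 8.15), at 0.917, 0.586, 1.45 and 0.745 against 0.155, 0.139, 0.422 and 0.233. *Hes1*, another target, was 2.15-fold higher and *Nrip2* 3.08-fold, and the ligand *Jag1* was 1.92-fold higher (1.44 to 2.56). *Hey1* was at 0.207-fold from 3 against 18 UMIs, and at 1.42-fold when the threshold was 25.

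Channels and receptors separated the groups in both directions. Of 13 genes of ion channels and calcium handling, 5 were at least 2-fold higher and 2 lower, with a median fold of 1.29. Among all genes these shares were 6.17% and 8.75%. Over the *Rgs5*-high remaining cells 4 were higher and 3 lower, with a median of 0.952. *Kcnmb1*, the β1 subunit that makes the large-conductance potassium channel of smooth muscle sensitive to calcium, had 39 against 5 UMIs. Its levels were 0.531, 0.733, 0.620 and 0.745 against 0, 0.139, 0.121 and 0, a fold of 9.70 (3.82 to 31.5). *Pln*, phospholamban, which restrains the calcium pump of the sarcoplasmic reticulum, had 38 against 4 UMIs and was absent from the *Acta2-Myh11* high cells of library 16. The calcium release channels *Itpr1* and *Ryr2* were 2.78-fold (1.92 to 4.11) and 2.14-fold (1.16 to 4.07) higher, *Itpr1* turning to 0.887-fold in thinned cells, and the pump *Atp2a2* was 2.00-fold higher (1.70 to 2.35), just under the 2-fold limit. *Cacna1c*, the voltage-gated calcium channel, and *Ano1*, a calcium-activated chloride channel, were level at 1.03-fold and 0.982-fold.

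The potassium channel that opens when ATP is low went the other way. *Kcnj8* codes for its pore and *Abcc9* for its sulfonylurea receptor, and both are known as pericyte markers. *Kcnj8* stood at 0.338, 1.10, 0.723 and 1.24 against 2.79, 2.55, 2.29 and 2.33, a fold of 0.293 (0.208 to 0.406). *Abcc9* stood at 1.59, 0.659, 0.517 and 0.745 against 4.03, 5.02, 3.14 and 3.72, a fold of 0.231 (0.172 to 0.307). Every library of the *Acta2-Myh11* high cells was below every library of the remaining cells for both subunits, and against the *Rgs5*-high remaining cells the folds were 0.223 and 0.183. Both stayed under 0.5-fold in all 14 alternative settings.

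Of 18 genes of vasoactive receptors and cyclic nucleotide signalling, 3 were at least 2-fold higher and 4 lower, with a median fold of 1.32. The shares of all genes were 6.17% and 8.75%. Of 17 measured over the *Rgs5*-high remaining cells 2 were higher and 4 lower, with a median of 0.983. *P2rx1* is described above. *Pde3a*, a phosphodiesterase that breaks down cyclic AMP, was 2.15-fold higher (1.77 to 2.62) and the membrane estrogen receptor *Gper1* 2.76-fold (1.66 to 4.73). The receptors for neuropeptide Y and vasopressin, *Npy1r* and *Avpr1a*, were 1.62-fold (1.31 to 2.00) and 1.55-fold (1.28 to 1.89) higher, and *Gucy1a3*, a subunit of the nitric oxide receptor, 1.53-fold. *Adra2a*, an α2-adrenergic receptor, stood at 2.08, 1.10, 0.982 and 2.11 against 4.96, 4.55, 4.22 and 5.28, a fold of 0.321 (0.253 to 0.404). The endothelin receptors parted: *Ednra* was at 1.05-fold (0.830 to 1.34) and *Ednrb* at 0.360-fold (0.240 to 0.528). Libraries overlapped for *Ednrb*, at 0.579, 0.366, 0.931 and 0 against 2.32, 2.14, 0.543 and 0.465.

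**Figure D4:**
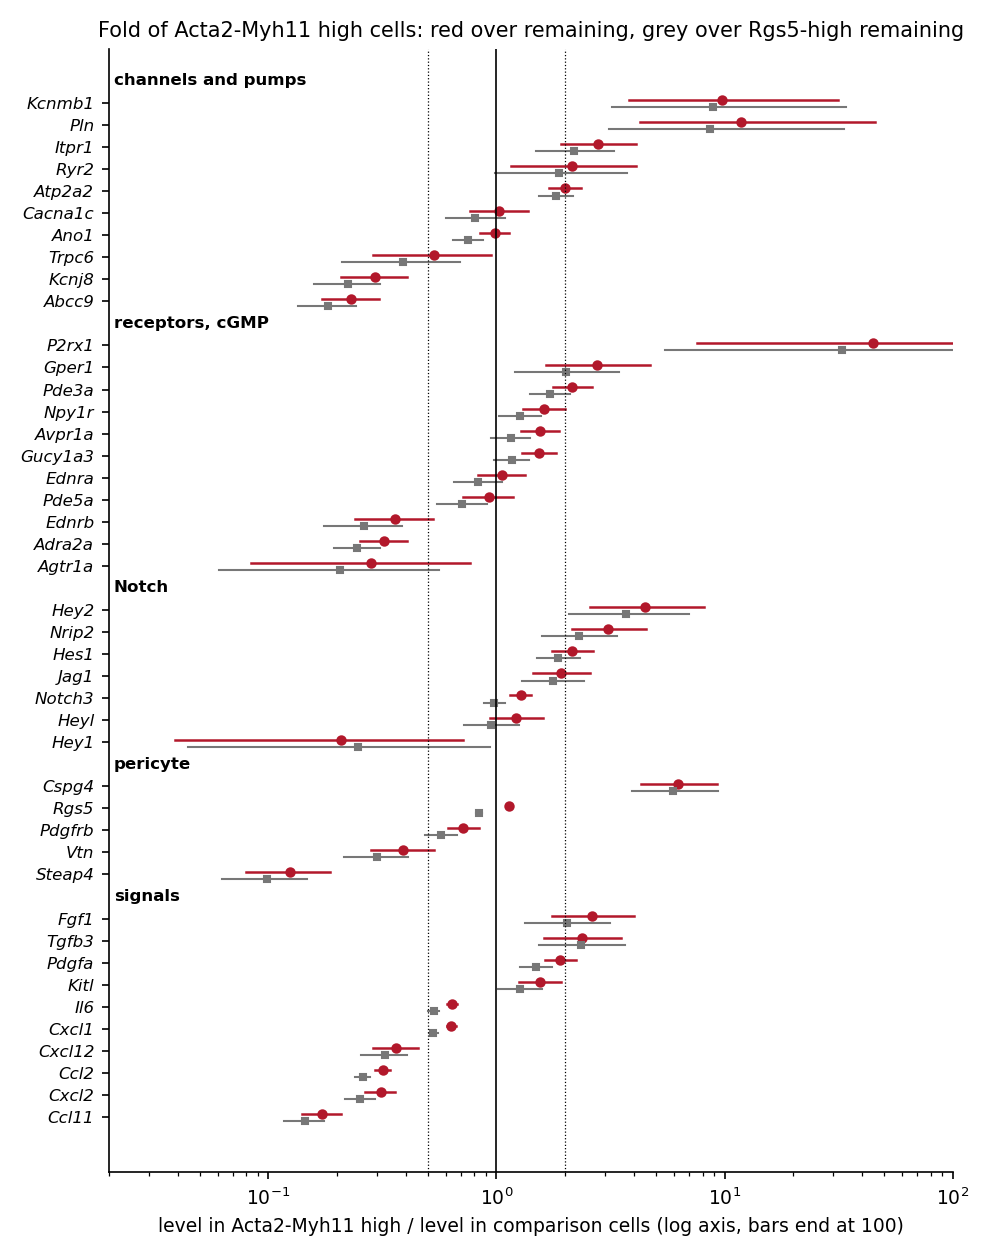
Folds of the *Acta2-Myh11* high cells over the remaining cells (red) and over the *Rgs5*-high remaining cells (grey) on a log axis, with 95% counting intervals and dotted lines at 0.5 and 2. *Kcnmb1* (9.70), *Pln* (11.8), *P2rx1* (44.8), *Hey2* (4.46) and *Cspg4* (6.22) lie to the right of 2, and *Kcnj8* (0.293), *Abcc9* (0.231), *Steap4* (0.125) and *Ccl11* (0.171) to the left of 0.5.

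Several genes named as pericyte markers were lower, although *Rgs5* was not. Of 15 measured, 1 was at least 2-fold higher and 7 lower, with a median fold of 0.715, beside 6.17% and 8.75% of all genes. Over the *Rgs5*-high remaining cells 1 was higher and 6 lower, with a median of 0.554. *Rgs5* stood at 134, 99.7, 129 and 132 in libraries 13 to 16, against 109, 118, 106 and 101 in all remaining cells and 149, 145, 149 and 152 in the *Rgs5*-high ones, which were chosen for it. The metalloreductase *Steap4* was at 0.125-fold (0.0800 to 0.187), and vitronectin (*Vtn*), *Postn* and the aminopeptidase *Enpep* were at 0.388-fold, 0.284-fold and 0.338-fold. *Pdgfrb*, the receptor for PDGF-B on all mural cells, was at 0.715-fold (0.611 to 0.836). *Cspg4*, the proteoglycan NG2, went the other way at 2.85, 3.37, 2.48 and 2.11 against 0.464, 0.325, 0.664 and 0.310, 6.22-fold higher (4.29 to 9.28). *Kcnj8*, *Abcc9*, *Steap4* and *Vtn* summed to 6.72 in the cells of 50 to 75, 2.35, 1.33 and then 0.431 in the top band, against 11.2 just below the threshold.

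Of 6 RGS genes measured, *Rgs5* included, 1 was at least 2-fold higher and 2 lower, beside 6.17% and 8.75% of all genes. *Rgs16* stood at 6.23, 7.26, 3.99 and 2.11 against 21, 24.6, 13 and 16.9, a fold of 0.267 (0.236 to 0.301). *Rgs7bp*, which anchors another RGS class to the membrane, was 2.80-fold higher, and *Rgs4* was at 0.986-fold.

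The extracellular matrix of the cells differed by component. Of 28 matrix genes measured, 2 were at least 2-fold higher and 8 lower, with a median fold of 0.775, beside 6.17% and 8.75% of all genes. Over the *Rgs5*-high remaining cells 3 of 25 were higher and 4 lower, with a median of 0.796. The remaining cells also held more fibroblast RNA, at 319 per 10,000 for 12 fibroblast genes against 56.2 in the *Acta2-Myh11* high and 103 in the *Rgs5*-high remaining cells, and its part in the matrix and ligand levels was not tested. *Mgp*, matrix Gla protein, an inhibitor of calcification, stood at 4.40, 3.52, 3.37 and 6.84 against 22.3, 24.2, 15.9 and 16.2, a fold of 0.206 (0.180 to 0.235), and 0.183 over the *Rgs5*-high remaining cells. *Sparc* was at 0.475-fold (0.459 to 0.492), or 0.526-fold without library 14, and its relative *Sparcl1* at 1.92-fold, at 65.0, 69.4, 64.2 and 46.1 against 36.8, 35.2, 26.8 and 29.5. Among the laminins of the basement membrane, the α5 chain *Lama5* was 3.10-fold higher (2.29 to 4.24) and the α2 chain *Lama2* at 0.211-fold (0.124 to 0.340). Collagen IV was level for *Col4a1* (0.983-fold) and at 0.754-fold for *Col4a2*. *Eln*, elastin, varied most between libraries, at 1.11, 4.77, 7.14 and 9.0 against 3.80, 2.60, 2.42 and 8.74, and its groups overlapped.

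Adhesion genes leaned to the higher side, with 7 of 21 at least 2-fold higher, 1 lower and a median fold of 1.49. Among all genes 6.17% were higher and 8.75% lower. Of 18 measured over the *Rgs5*-high remaining cells 5 were higher and none lower, with a median of 1.42. Integrins couple the matrix to the actin skeleton, and *Itga8* codes for the α8 chain, a partner of β1 that binds RGD-containing matrix proteins. *Itga8* stood at 1.59, 2.05, 2.02 and 1.61 against 0.503, 0.232, 0.302 and 0.310, a 5.21-fold difference (3.40 to 8.25). *Itga4* was 2.95-fold higher, *Itgb1* 1.59-fold, and *Itga7* level at 1.12-fold. The adaptor *Vcl* (vinculin) was 3.42-fold higher (1.47 to 8.89), and *Tln1* (talin 1) 2.05-fold (1.67 to 2.5), but 1.92-fold without library 13 and 1.99-fold without library 14. *Mcam* (CD146) was 2.17-fold higher, and 1.69-fold over the *Rgs5*-high remaining cells. *Itga8* and *Actg2* are also known from the arrector pili muscle and the dermal sheath of the hair follicle, and the tables do not separate these muscles from vessels. Of the other markers listed for them, *Hhip*, *Chrm2*, *Chrm3* and *Col11a1* had no UMI in the 150 cells, *Acan* had 7 and *Tnmd* 18. Of the 5 markers of this list measured over all remaining cells, 2 (*Itga8* and *Actg2*) were at least 2-fold higher and 1 (*Tnmd*) lower. The shares of all genes were 6.17% and 8.75%. The median fold of the 5 was 1.42. Over the *Rgs5*-high remaining cells 3 of 5 (*Itga8*, *Actg2* and *Tnmd*) were at least 2-fold higher, beside 6.04% of all genes, with a median fold of 4.27.

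The study asked how mast cells move and take up positions in tissue. It names Kit ligand, encoded by *Kitl*, as their major growth factor. *Kitl* stood at 3.81, 2.49, 3.36 and 2.61 in the *Acta2-Myh11* high cells of libraries 13 to 16, at 2.44, 1.76, 2.47 and 1.40 in the remaining cells and at 2.82, 2.14, 3.02 and 2.13 in the *Rgs5*-high remaining cells. It was the higher of the 2 groups in each library, and the libraries of the *Acta2-Myh11* high cells reached down to just above those of the remaining cells and overlapped those of the *Rgs5*-high ones. The fold was 1.55 (1.25 to 1.91) over all remaining cells and 1.26 (1.01 to 1.58) over the *Rgs5*-high cells, under the 2-fold limit in both. At a threshold of 25 the fold over the remaining cells was 2.01 and at 100 it was 1.18. When each cell was thinned to 1000 UMIs the direction turned, to 0.855-fold, and 17.4% of the *Acta2-Myh11* high against 19.6% of the remaining cells held a *Kitl* UMI. WT MCs, taken as the background, gave 0.111% in the same count, at a median of 4386 UMIs per cell against 4492 and 4683. *Kitl* was thus measured well above its level in WT MCs in both groups, and no difference between the groups held under every setting. The MCs came from other libraries, so they do not measure free RNA within the *Myh11*-GFP libraries. *Kitl* on the unused barcodes of those libraries was not counted.

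Along the sum *Kitl* was lowest at the ends. It stood at 1.57 under 25 and 3.04 from 25 to 50, then at 3.39, 3.55 and 3.65 up to 150, and at 1.90 (1.19 to 2.87) from 22 UMIs in the 26 cells above. In that top band the libraries read 3.65, 1.5, 1.36 and 0.638, from only 6, 7, 8 and 5 cells. Library 13 was the highest there, as it was for *Rgs5*, and its 6 cells include the deep cell described above. The 16 cells with at least 2 of *Cnn1*, *Actg2* and *P2rx1* held *Kitl* at 1.97 (1.17 to 3.13), against 3.67 (3.14 to 4.29) in the 116 cells with none. Without the cells of 150 or more, an alternative chosen after seeing the data, the fold over the remaining cells was 1.69.

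**Figure D5:**
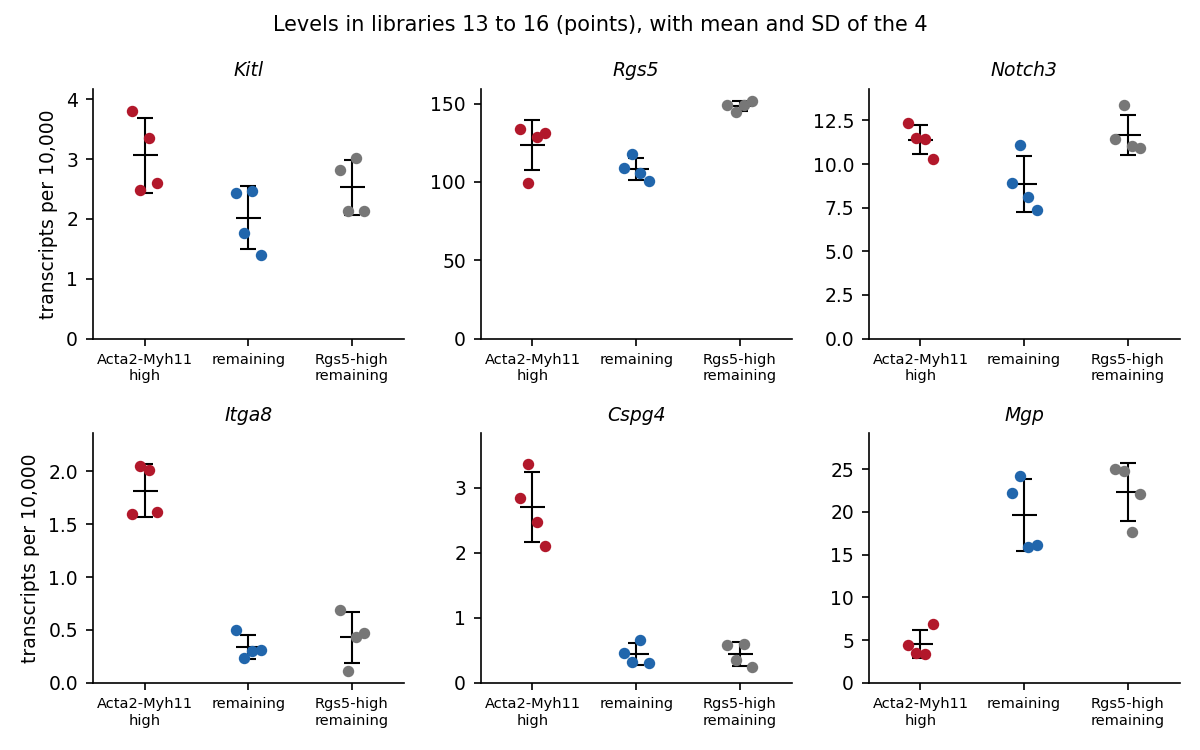
Levels of 6 genes in transcripts per 10,000 in libraries 13 to 16 (points), with the mean and SD of the 4 libraries, for *Acta2-Myh11* high, remaining and *Rgs5*-high remaining cells. *Itga8*, *Cspg4* and *Mgp* separate the groups, while *Kitl* of the *Acta2-Myh11* high cells (2.49 to 3.81) overlaps that of the *Rgs5*-high remaining cells (2.13 to 3.02).

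Several chemokines were lower in the *Acta2-Myh11* high cells. Of 27 ligands measured, 3 were at least 2-fold higher and 11 lower, with a median fold of 0.640, beside 6.17% and 8.75% of all genes. Of 24 measured over the *Rgs5*-high remaining cells 3 were higher and 6 lower, with a median of 0.629. *Ccl2*, which draws monocytes, stood at 18.7, 9.10, 11.7 and 10.6 against 38.5, 59.0, 29.7 and 36.6, a fold of 0.317 (0.293 to 0.342). *Ccl11*, eotaxin, was at 0.171-fold (0.140 to 0.208), *Cxcl12* at 0.362-fold (0.288 to 0.452) and *Cxcl2* at 0.310-fold. *Cxcl1*, which draws neutrophils, stood at 69.4, 47.6, 47.1 and 48.1 against 74.6, 125, 61.3 and 77.8, and *Il6* at 42.9, 32.9, 31.4 and 31.2 against 52.7, 78.0, 48.6 and 32.5. Their folds of 0.635 and 0.640 did not pass the 2-fold limit, and the libraries of the groups overlapped. The median cell held only 27.3 *Cxcl1* and 8.88 *Il6* per 10,000, so a minority of cells carried much of both sums.

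Growth factors were the higher signals. *Fgf1* was 2.63-fold higher (1.74 to 4.02), at 1.01, 1.69, 1.34 and 0.745 against 0.464, 0.557, 0.483 and 0.310. *Tgfb3* was 2.37-fold higher (1.61 to 3.53) and *Pdgfb* 2.07-fold, from 15 against 9 UMIs. *Pdgfa* was 1.91-fold higher (1.63 to 2.23), at 6.32, 8.21, 6.05 and 5.71 against 3.25, 4.27, 3.26 and 2.71.

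Immediate early genes, which are switched on within minutes and also by tissue digestion, stayed within 2-fold between the groups. None of 14 passed the 2-fold limit in either direction, beside 6.17% higher and 8.75% lower among all genes. Their median fold was 0.805, against 1.02 over all genes. Their sum ranged over the libraries from 104 to 129 in the *Acta2-Myh11* high cells and from 117 to 159 in the remaining cells. Within the 114 deeper cells the chemokines and *Il6* had a Spearman correlation of 0.707 with these genes (0.535 to 0.809 within libraries), and both share the depth and the library of the cell. The part of digestion in the chemokine levels was not tested.

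Markers of other cell types were checked in the 150 cells. The 10 endothelial genes listed summed to between 0 and 0.207 per library, against 1.11 to 4.59 in the remaining cells, and *Cldn5*, *Cdh5*, *Kdr*, *Emcn* and *Tie1* had no UMI. The 8 keratinocyte genes summed to between 0.124 and 0.806, against 0.155 to 25.3. The 12 fibroblast genes summed to between 35.9 and 73.2, against 241 to 556 in all remaining cells and 87.4 to 111 in the *Rgs5*-high ones. Of the 10 measured, 9 were at least 2-fold lower than in all remaining cells, beside 8.75% of all genes. Against the *Rgs5*-high ones 1 of 7 was at least 2-fold lower, beside 6.02% of all genes. Most fibroblast RNA of the remaining cells was thus in cells low in *Rgs5*. *Pdgfra* had 7 UMIs and *Dpp4* none. Of 6 macrophage genes none passed the 2-fold limit, beside 6.17% higher and 8.75% lower among all genes, with *C1qb* at 1.02 against 0.963. The MC protease *Cpa3*, at 133 to 155 in WT MCs, had no UMI in the 150 cells. The 8 MC genes listed summed to at most 0.338 in any library of the *Acta2-Myh11* high cells. *P2rx1* was measured in WT MCs at 2.74 to 3.12, and the part of MC RNA in its level here was not tested.

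Heart RNA was present on barcodes outside the set in use. Each table has 2 sets of 96 barcodes, of which 1 set was in use, and the other set took 2.25% to 5.96% of the transcripts. Of the 330 cells, 8 lay on that other set, all among the 17 left out, and none of the 150 did. The 5 heart genes used to leave cells out (*Actc1*, *Tnnt2*, *Mb*, *Myl2* and *Myl3*) were at 0 in 122 of the 150 cells and reached at most 0.492% of transcripts, just under the limit of 0.5%. *Pln*, *Ryr2* and *Casq2* are shared by heart and smooth muscle. A list of 14 heart genes not used for that choice, *Pln* and *Ryr2* included, summed to 7.12 in the *Acta2-Myh11* high and 4.52 in the remaining cells. Their libraries ranged from 5.47 to 7.96 and from 3.88 to 5.71. Of 4 measured, *Ryr2* and *Pln* were at least 2-fold higher and none lower, beside 6.17% and 8.75% of all genes, with a median fold of 1.77. Within the list *Ttn* stood at 0.259 in the *Acta2-Myh11* high cells and 0.286 in the remaining cells, while *Pln* stood at 0.615 and 0.0520. In the cells left out for heart RNA *Ttn* stood at 24.4 and *Pln* at 4.49. *Myh6*, the heart myosin, had 5 UMIs in the 150 cells and none in the remaining cells, and the part of heart RNA in the *Pln* level was not tested.

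The 15 genes with the highest folds that were higher in all 4 libraries were *P2rx1*, *Actg2*, *Gpr20*, *Cnn1*, *Timp4*, *Tcf15*, *Myom1*, *Rergl*, *Ldb3*, *Kcnmb1*, *Pdlim3*, *Scn4b*, *Kcnab1*, *Prkag2* and *Inhba*. Their folds ran from 44.8 to 7.78, with *Cnn1* placed by its floor. *Gpr20*, an orphan G protein-coupled receptor, stood at 0.579, 0.659, 0.207 and 0.994 against 0, 0, 0.0603 and 0.0775. Its fold of 20.5 fell to 1.75, under the 2-fold limit, in cells thinned to 1000 UMIs. *Timp4*, an inhibitor of matrix metalloproteinases, stood at 0.579, 0.879, 0.465 and 0.497 against 0.0387, 0.0928, 0 and 0. Both were seen in every library of the *Acta2-Myh11* high cells and in some of the other. *Myom1*, a myomesin that links myosin filaments, rested on more molecules, with 105 against 11 UMIs and a fold of 11.9 (6.37 to 24.5). *Kcnab1* and *Scn4b*, accessory subunits of potassium and sodium channels, were 8.37-fold (4.42 to 17.5) and 8.4-fold (2.93 to 33.0) higher. *Rergl*, a Ras-like GTPase, and *Inhba*, the activin A subunit, owed 39.1% and 38.0% of their UMIs to 1 cell.

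The 10 genes with the lowest folds, lower in all 4 libraries, were *Gpnmb*, *Ctsh*, *Adh7*, *S100a16*, *Ifit1*, *Pcolce2*, *Dpep1*, *Ace*, *Apod* and *Serpinf1*, at 0.0138-fold to 0.0439-fold. *Apod*, a lipid carrier, stood at 0.210 against 5.4, and *Serpinf1*, the secreted factor PEDF, at 0.146 against 3.32. In the *Rgs5*-high remaining cells they stood at 0.517 and 0.464, for folds of 0.407 and 0.314. Against the *Rgs5*-high remaining cells *Gpnmb*, *Ctsh* and *Pcolce2* were at 0.908-fold each, and *Adh7*, *S100a16*, *Dpep1* and *Ace* at 0.130-fold to 0.227-fold. *Ifit1* was nearly level between the *Rgs5*-high and all remaining cells, at 0.464 and 0.469, and the other genes of the 10 were lower in the *Rgs5*-high ones. The higher levels of these other genes were thus in remaining cells low in *Rgs5*. *Ifit1*, induced by interferon, was at 0.0349-fold of the *Rgs5*-high remaining cells as well, and at 0.833-fold of all remaining cells at a threshold of 25. In the 150 cells 8 of the 10 genes had only 1 or 2 UMIs, *Apod* had 13 and *Serpinf1* 9.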

How the data were processed

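Single cells were sorted into plates and libraries made by mCEL-Seq2 (a 3′ tag method with UMIs). Per the labels and the study's methods, the authors ran bcl2fastq 2.17.1.14 and BWA 0.6.2-r126 (versions from the submitters' processing notes) against mouse mm10 gene models, merged isoforms and overlapping loci, counted sense reads and discarded reads that mapped to several places. The deposited values are transcript counts per gene and barcode, estimated from UMIs by a correction for collisions among 4096 possible barcodes. Whole UMIs were recovered from them within 1e-06. With reads mapping to several genes discarded, close paralogs such as the actins can be undercounted.

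Cells over 1000 transcripts were classed by the sums given above. Levels were taken from summed transcripts outside genes named Gm plus a digit. Intervals are exact Poisson for levels, exact conditional binomial for folds and exact binomial for shares, at 95%, and floors are 3 counts. UMIs of amplified reads are corrected for copying, but intervals and floors cover counting error only. No count model was fitted, since the 4 libraries were 1 sample, and no doublet caller was run. The cells, gene lists and summed sets were chosen with earlier results of these data known. Named genes were those of the lists, and the 15 highest and 10 lowest folds with 1 direction in all 4 libraries, leaving out the genes that chose the cells, Gm, mitochondrial and ribosomal protein genes. The alternatives changed the threshold, denominator, heart filter, depth, UMI minimum, weighting of cells and the libraries used. The calculations were tested on simulated data. Gene coordinates are those of GENCODE M21 (GRCm38), promoters those of RefSeq on GRCm38.p6. Python 3.11.15, pandas 2.3.3, numpy 2.4.6, scipy 1.17.1 and matplotlib 3.10.9 were used.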

Additional observations from a re-analysis of the deposited data

Results flagged for a closer look

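Among 70 genes with at least 100 UMIs in the *Acta2-Myh11* high cells, 4 had a library whose gap to the nearest other exceeded Dixon's 95% critical value for 4 values, where chance flags about 1 in 20. *Cxcl1* stood at 69.4 per 10,000 in library 13 against 47.1 to 48.1 in the others, and *Il6* at 42.9 in library 13 against 31.2 to 32.9. *Tpm2* was low in library 13, at 5.16 against 9.20 to 9.68. *Rgs5* was low in library 14, at 99.7 against 129 to 134. Heart genes made up 1.26%, 0.743%, 1.10% and 0.829% of the UMIs on the barcodes not in use in libraries 13 to 16, against 0.0279%, 0.0293%, 0.0381% and 0.0537% on the barcodes in use. *Acta2* had 33, 33, 40 and 54 UMIs on the unused barcodes, or 27.1, 23.0, 32.0 and 31.5 per 10,000.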

How the results depend on the processing

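No paired analysis was possible because the results come from no test; values within each library stand beside the pooled ones. The number of *Acta2-Myh11* high cells was 217 at a threshold of 25, 71 at a threshold of 100, and 105 to 119 without 1 library in turn. Genes at least 2-fold higher and lower than in the remaining cells numbered 189 and 189 in cells thinned to 1000 UMIs, 214 and 299 with at least 50 UMIs, and 1388 and 1830 with at least 1 UMI, in place of 477 and 677, and 436 to 478 and 559 to 646 without 1 library. At a threshold of 25 these genes numbered 708 and 530, and at 100 they numbered 441 and 961. Against the *Rgs5*-high remaining cells, in place of 428 and 427, they numbered 176 and 154 thinned, 161 and 177 with at least 50 UMIs and 1236 and 1635 with at least 1 UMI. There, higher genes numbered 681 at a threshold of 25 and lower genes 753 at 100, and 362 to 424 and 379 to 432 without 1 library. Fewer or more genes are measured by construction where UMIs are thinned or their minimum moves, and the cause of the others was not tested. Among genes at least 2-fold apart, the direction of *Hey1* turned at a threshold of 25 (1.42-fold), of *Itpr1* in thinned cells (0.887-fold) and of *Myocd* with each cell counted equally (0.932-fold). Of 121 named genes with a fold, 80 were at least 2-fold apart, and 51 of these were so under each of 14 alternative settings. Of the 41 less than 2-fold apart, 21 crossed 1 in some setting, among them *Kitl* (0.855 to 2.01), *Eln* (0.780 to 2.23), *Gucy1a3* (0.932 to 1.93) and *Rgs5* (down to 0.859). Removing cells with over 2% *Kcnq1ot1*, as the study did, removed none. Counts of 36 to 70 UMIs in these cells and 0 to 5 in the remaining cells limit the folds of *Cnn1*, *Actg2*, *P2rx1*, *Kcnmb1* and *Pln*, and the number of animals behind the 4 libraries is not given, so that no spread between animals could be measured.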
